A study of Mus musculus with 6 samples.

Results

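The genes described here encode the proteasome and the factors that build and regulate it. They were taken from the deposited table as the protein-coding genes whose symbol begins with Psma, Psmb, Psmc, Psmd, Psme, Psmf or Psmg and a digit, together with Pomp and Adrm1. The immunoproteasome subunits Psmb8, Psmb9 and Psmb10 were left out by this rule. This gave 47 genes of the 14774 in the table, of which 11733 are protein-coding. The rule works on symbols and therefore also took Psmc3ip, which encodes a protein of meiotic recombination with no proteasome role, and Psme2b, a near-identical copy of Psme2.

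The proteasome is the protease that degrades proteins tagged with ubiquitin in the cytosol and the nucleus. Its barrel-shaped 20S core is a stack of alpha and beta rings, with the active sites on 3 kinds of beta subunit that face the inner chamber. The 19S cap binds ubiquitin, removes it, and unfolds the substrate with a ring of ATPases. Dedicated chaperones assemble the core and the base of the cap, and alternative activators can take the place of the cap on the core. Transcription factor NRF1, encoded by Nfe2l1, is known to raise transcription of proteasome genes together when proteasome activity falls short. In Leydig cells, the testosterone-producing cells of the testis, STAR moves cholesterol into mitochondria, and its precursor is known to be short-lived.

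RNA was sequenced from 3 libraries of the wild type mouse Leydig tumor line MA-10 and from 3 libraries of STARKO1 cells, an MA-10 derivative whose Star gene had been disrupted with CRISPR/Cas9. Both were untreated and shared every allele and condition that the labels give except the Star genotype. STARKO1 was grown from 1 sorted cell and is therefore 1 clone, so that the loss of STAR and the history of the clone cannot be told apart. The labels do not say whether replicates were separate cultures, and p-values here measure the spread between these libraries, which may be technical. These are bulk samples, in which fewer cells of a type and less RNA per cell cannot be told apart.

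Total estimated counts were between 14114351 and 19530062 per library. CPM below are counts scaled to the TMM-adjusted library size. The TMM factors were 0.654 and 0.805 in MA-10 replicates 2 and 3 and 1.16 to 1.19 in the other libraries. Star fell from 60.9, 109 and 61.4 CPM in MA-10 to between 2.02 and 2.71 CPM in STARKO1 (log2 fold change −5.09, SE 0.331, adjusted p = 0.00121, quasi-likelihood test of edgeR, Benjamini-Hochberg adjustment). All 9 Leydig cell markers were in the table, with a summed level of 1560 to 2098 CPM in MA-10 and 1408 to 1457 CPM in STARKO1. The germ cell marker Ddx4, of 5 listed, and the macrophage markers Csf1r and Cd68, of 4 listed, reached at most 3.55 and 9.85 CPM. The Sertoli cell markers Dhh and Rhox5, of 5 listed, summed to 333 to 524 CPM in MA-10 and 565 to 589 CPM in STARKO1, and the endothelial markers Pecam1 and Cdh5, of 3 listed, to 26.4 to 41.5 and 118 to 124 CPM. Both sums were higher in every STARKO1 library, and their part in the results was not tested. MA-10 replicate 1 stood apart from its own group: over 8538 genes its log2 CPM correlated at 0.802 and 0.874 with MA-10 replicates 2 and 3, but at 0.949 to 0.955 with the STARKO1 libraries, which correlated with each other at 0.995 to 0.996. MA-10 replicates 2 and 3 correlated at 0.974 with each other and at 0.780 to 0.850 with the STARKO1 libraries. Which of the MA-10 libraries is the unusual one was not tested. Values without MA-10 replicate 1 are given beside the results below as an alternative to those of all 6 libraries. The noncoding 7SL RNA made up 14.4% and 6.63% of MA-10 libraries 2 and 3 and 1.81% to 2.37% of the other 4, and its part in the results was not tested.

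Of the 47 genes, all of which passed the filter on low counts, 1 was called as different between the cell lines with all 6 libraries. Adrm1, which encodes a ubiquitin receptor of the 19S cap, was higher in STARKO1, and no proteasome gene was called lower by edgeR's quasi-likelihood test at an adjusted p under 0.05. Over all 11939 tested genes, 9.04% were called, 4.3% higher and 4.74% lower. At an unadjusted p under 0.05, 13 of the 47 passed, 3 higher and 10 lower, against 37.6% of all tested genes, 15% higher and 22.7% lower. DESeq2 called 9 of the 47, Adrm1 higher and Psmb2, Psmb5, Psmc1, Psmd8, Psmg4, Psme1, Psme2 and Psme2b lower, against 28.4% of all tested genes, 11% higher and 17.4% lower. The median log2 fold change of the 47 was −0.34, with 33 below 0 and 14 above (18 below 0 with scaling by library size alone), and that of all tested genes was −0.05. The median of the proteasome genes stayed below that of all tested genes, by 0.29 with TMM scaling, 0.25 with upper quartile scaling and 0.17 with scaling by library size alone, where all values were shifted upward and the 2 medians were 0.20 and 0.38. It came to within 0.08 of it with offsets for gene length (−0.11 and −0.03) and to within 0.04 of it without MA-10 replicate 2 (−0.10 and −0.06).

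The levels by library are drawn as a color map. In 39 of the 47 genes, MA-10 replicate 1 was the lowest of the 3 MA-10 libraries, as it was in 41.5% of all tested genes. The SD of log2 CPM between the 3 MA-10 libraries had a median of 0.531 over the proteasome genes and 0.403 over all tested genes. Between the STARKO1 libraries the same medians were 0.0638 and 0.0895. The spread within MA-10 was thus several times that within STARKO1.

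**Figure D1:**
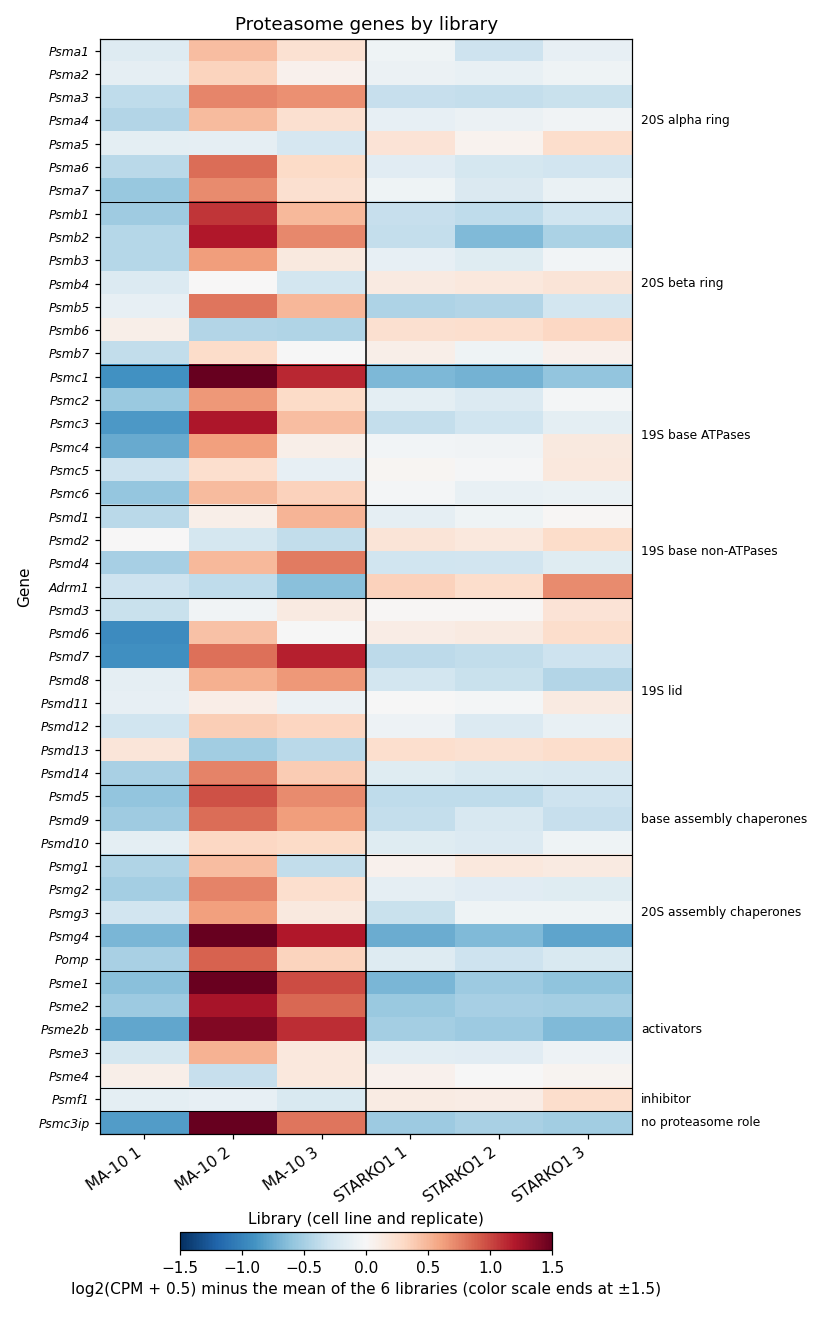
Level of each of the 47 genes in each library, as log2(CPM + 0.5) minus the mean of the 6 libraries, with genes in rows grouped by role and libraries in columns. Red is above and blue is below the gene's mean. Most genes are red in MA-10 replicates 2 and 3 and blue in MA-10 replicate 1, while Adrm1, Psmb6, Psmd2 and Psmd13 show the opposite pattern between MA-10 replicates 2 and 3 and STARKO1.

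Without MA-10 replicate 1, the same test called 37 of the 47 genes, 30 lower and 7 higher in STARKO1. In that comparison 65.5% of the 12198 tested genes were called, 31.6% lower and 33.9% higher. The median log2 fold change of the 47 was then −0.43, against 0.06 over all tested genes. When any of the other 5 libraries was left out instead, none of the 47 was called, although 89 to 512 genes of the whole table were. Without MA-10 replicate 2, the log2 fold changes of Psmc1 and Psmg4, the lowest of the 47 in all 6 libraries, were −1.11 and −1.30. Whether the libraries of the cell lines overlapped was counted apart from any test, on CPM with TMM scaling, on which the counts depend. STARKO1 lay wholly above MA-10 in 7 genes, Psma5, Psmb4, Psmb6, Psmd2, Adrm1, Psmd13 and Psmf1, and wholly below it in 2, Psmb5 and Psmd8. Over all tested genes, 21.5% lay wholly above and 21% wholly below. Of these, Psmb4 and Psmd8 were picked on sight of their values, as were Psma6, Psmc4, Psmc6, Psmd6, Psmd9, Psmd14, Pomp and Psme3 below.

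**Figure D2:**
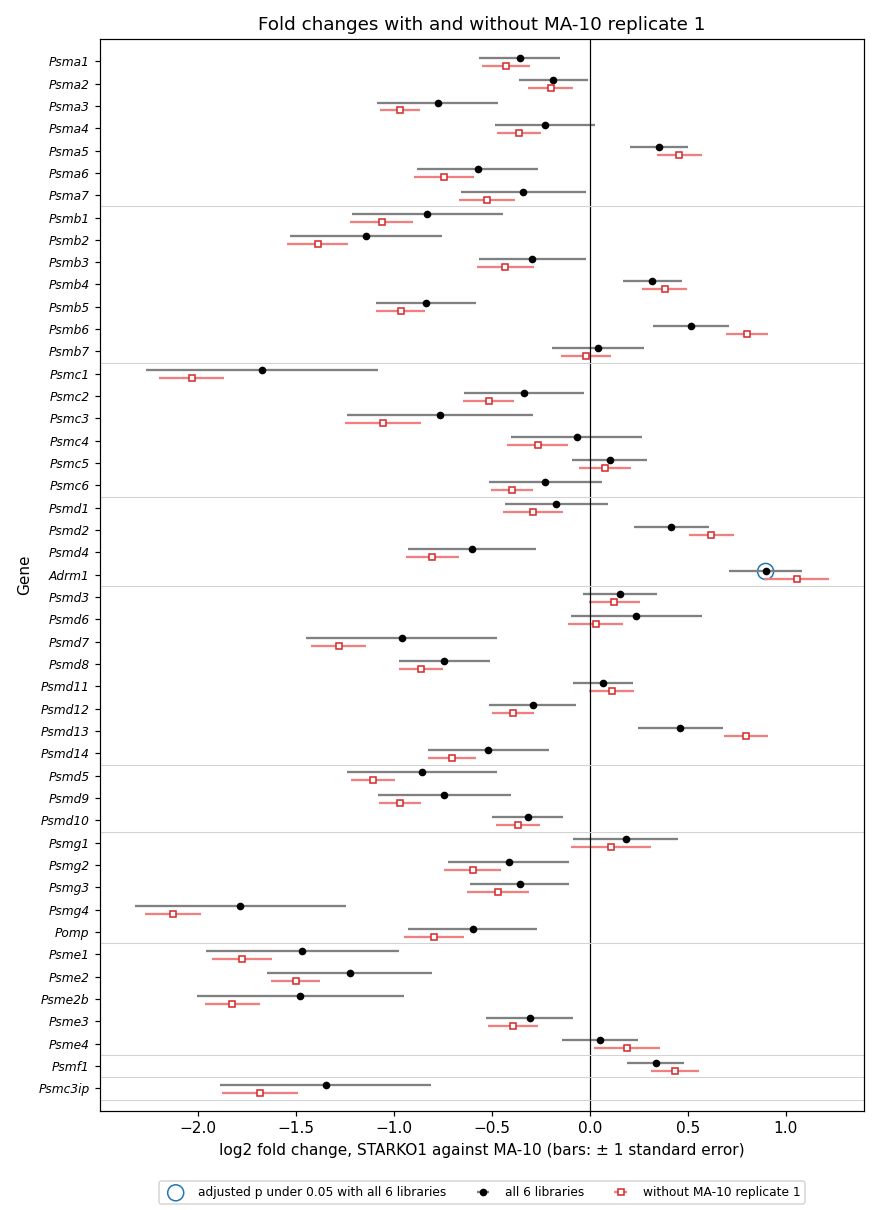
Log2 fold change of each gene, STARKO1 against MA-10, with all 6 libraries (filled circles) and without MA-10 replicate 1 (open squares), each with a bar of ± 1 standard error. Genes are grouped by role between the horizontal lines, and the ring marks Adrm1, the gene with an adjusted p under 0.05 in all 6 libraries. Values run from −1.78 in Psmg4 to 0.90 in Adrm1, and all 47 bars are shorter without MA-10 replicate 1.

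The 7 alpha ring genes, Psma1 to Psma7, encode the outer rings of the core, whose N-termini form the gate to the chamber. Their log2 fold changes ran from −0.78 in Psma3 to 0.35 in Psma5, with a median of −0.34. Psma3 (chr12:70974621-70996347, GRCm38, plus strand) had 159, 346 and 336 CPM in MA-10, in the order of the replicate numbers, and 164, 162 and 165 CPM in STARKO1. The 3 STARKO1 values and MA-10 replicate 1 lay together, and MA-10 replicates 2 and 3 lay above them (log2 fold change −0.78, SE 0.308, adjusted p = 0.119, and without MA-10 replicate 1 −0.97, adjusted p = 9.98e-05). Psma5 went the other way. It had 93.4, 94.3 and 86.9 CPM in MA-10 and 119, 107 and 124 CPM in STARKO1, with no overlap between the cell lines and no library standing apart (log2 fold change 0.35, SE 0.148, adjusted p = 0.132, and without MA-10 replicate 1 0.46, adjusted p = 0.00855). Psma4 had a log2 fold change of −0.23 (without MA-10 replicate 1 −0.36, adjusted p = 0.0215), and that of the other ring genes lay between −0.57 in Psma6 and −0.19 in Psma2. In the test that left out MA-10 replicate 1, 6 of the 7 were called, Psma5 higher and 5 lower, and Psma2 was not. That test called 65.5% of all tested genes.

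The 7 beta ring genes include the catalytic subunits. Psmb5, with chymotrypsin-like activity, had 115, 219 and 177 CPM in MA-10 and 90.6, 91.8 and 103 CPM in STARKO1. Every STARKO1 library was below every MA-10 library (log2 fold change −0.84, SE 0.254, adjusted p = 0.0735, and without MA-10 replicate 1 −0.96, adjusted p = 0.000285). Psmb6, with caspase-like activity, had 109.6, 75.9 and 75.6 CPM in MA-10 and 121.9, 123.4 and 128.0 CPM in STARKO1. Here every STARKO1 library was above every MA-10 library, and MA-10 replicate 1 was the MA-10 library nearest to them (log2 fold change 0.52, SE 0.195, adjusted p = 0.108, and without MA-10 replicate 1 0.80, adjusted p = 0.000327). Psmb7, with trypsin-like activity, had 565, 884 and 727 CPM in MA-10 and 774, 700 and 763 CPM in STARKO1. Its cell lines overlapped fully (log2 fold change 0.04, SE 0.234, adjusted p = 0.910, and without MA-10 replicate 1 −0.02, adjusted p = 0.898). With TMM scaling, the 3 genes of the active sites thus had fold changes below 0, above 0 and near 0. Each core carries all 3 proteins in equal number. With scaling by library size alone, the values were −0.31 for Psmb5, 0.89 for Psmb6 and 0.54 for Psmb7. With gene length offsets they were −0.34, 0.85 and 0.47, and none of these was called. Differences between these fold changes were not tested.

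Among the structural beta subunits, Psmb2 had 55.8, 174 and 125 CPM in MA-10 and 58.9, 47.6 and 54.0 CPM in STARKO1, so that MA-10 replicate 1 fell among the STARKO1 libraries (log2 fold change −1.14, SE 0.389, adjusted p = 0.0887, and without MA-10 replicate 1 −1.39, adjusted p = 0.000129). Psmb1, with MA-10 replicate 1 as its lowest library, had a log2 fold change of −0.83 (SE 0.387, adjusted p = 0.163, and without MA-10 replicate 1 −1.06, adjusted p = 0.000633), and Psmb3 had −0.29 (SE 0.271, and without MA-10 replicate 1 −0.43, adjusted p = 0.0289). Psmb4 had 84.5, 98.0 and 80.8 CPM in MA-10 and 107, 109 and 112 CPM in STARKO1, without overlap (log2 fold change 0.32, SE 0.151, adjusted p = 0.169, and without MA-10 replicate 1 0.38, adjusted p = 0.0193). Leaving out MA-10 replicate 1, 6 of the 7 beta ring genes were called, Psmb4 and Psmb6 higher and 4 lower, against 65.5% of all tested genes.

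The 6 ATPases Psmc1 to Psmc6 form the ring that unfolds substrates and opens the gate of the core. Psmc1 (chr12:100110154-100123405, plus strand) had the largest SD of log2 CPM within MA-10 of all 47 genes. It had 146, 915 and 600 CPM in MA-10 and 171, 168 and 182 CPM in STARKO1. MA-10 replicates 2 and 3 were above all other libraries, and MA-10 replicate 1 was below all of them (log2 fold change −1.67, SE 0.590, adjusted p = 0.0941, and without MA-10 replicate 1 −2.03, adjusted p = 3.36e-05). Psmc3 had 161, 680 and 404 CPM in MA-10 and 229, 239 and 265 CPM in STARKO1, the same order of libraries at a smaller distance (log2 fold change −0.77, SE 0.474, adjusted p = 0.265, and without MA-10 replicate 1 −1.06, adjusted p = 0.00178). At the other end, Psmc5 had 93.6, 138 and 107 CPM in MA-10 and 118, 115 and 130 CPM in STARKO1, which overlapped (log2 fold change 0.10, SE 0.192, adjusted p = 0.711, and without MA-10 replicate 1 0.08, adjusted p = 0.632). The ring holds 1 copy of each ATPase protein, and the levels here are of RNA, with subunit protein not measured. The ratio of Psmc1 to Psmc5 in CPM, not corrected for length, was 1.56, 6.64 and 5.64 in MA-10 and 1.45, 1.46 and 1.40 in STARKO1. With MA-10 replicate 1 left out, 4 of the 6 were called, all lower, and Psmc4 and Psmc5 were not. Of all tested genes, 65.5% were then called, 31.6% lower.

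The non-ATPase subunits of the base are the scaffolds Psmd1 and Psmd2 and the ubiquitin receptors Psmd4 and Adrm1. Adrm1 (chr2:180171485-180176286, GRCm38, plus strand) had 57.2, 54.3 and 45.7 CPM in MA-10 and 90.5, 85.4 and 117 CPM in STARKO1. All STARKO1 libraries were above all MA-10 libraries, and STARKO1 replicate 3 was the highest. Mean levels were 52.4 ± 5.96 CPM in MA-10 and 97.6 ± 16.9 CPM in STARKO1 (SD, n = 3 each), with a log2 fold change of 0.90 (SE 0.188) and an adjusted p of 0.0369 (edgeR, Benjamini-Hochberg). Without MA-10 replicate 1 the log2 fold change was 1.05 (adjusted p = 0.000749). Leaving out any other library kept the direction, at 0.75 to 1.03, but not the call, with adjusted p between 0.0685 in the absence of MA-10 replicate 2 and 0.182 in the absence of STARKO1 replicate 3. Scaling by library size alone also ended the call (log2 fold change 1.32, adjusted p = 0.0738). Its counts were not whole in 5 of the 6 libraries. Psmd4, the other receptor, had a log2 fold change of −0.60 (SE 0.329, adjusted p = 0.215, and without MA-10 replicate 1 −0.80, adjusted p = 0.00109).

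Psmd2 had 402, 333 and 310 CPM in MA-10 and 460, 447 and 487 CPM in STARKO1. The cell lines did not overlap, and MA-10 replicate 1 was again the nearest to STARKO1 (log2 fold change 0.42, SE 0.190, adjusted p = 0.157, and without MA-10 replicate 1 0.62, adjusted p = 0.00170). Psmd1, the related scaffold, had 259, 366 and 490 CPM in MA-10 and 313, 329 and 349 CPM in STARKO1, within the MA-10 range (log2 fold change −0.17, SE 0.261, adjusted p = 0.644, and without MA-10 replicate 1 −0.29, adjusted p = 0.132). Its counts were not whole in any library, and it overlaps Gm37914 and Gm21972 on its own strand.

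**Figure D3:**
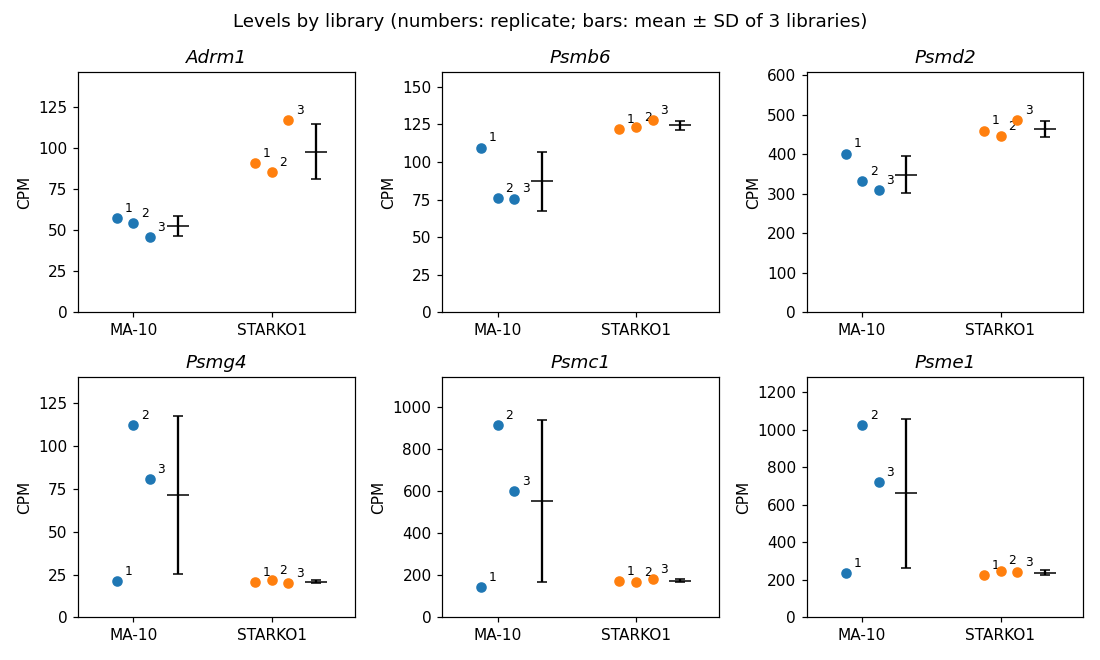
Level in CPM of Adrm1, Psmb6, Psmd2, Psmg4, Psmc1 and Psme1 in each library, with the replicate number beside each point and bars for the mean ± SD of the 3 libraries of each cell line. In the upper row all STARKO1 points lie above all MA-10 points. In the lower row MA-10 replicate 1 lies with the STARKO1 points, at 21.4 CPM for Psmg4, 146 CPM for Psmc1 and 237 CPM for Psme1, and MA-10 replicates 2 and 3 lie far above.

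Promoter sequence is shown for Adrm1, Psmb6 and Psmd2, which were higher in every STARKO1 library, and for Psmc1 and Psmg4, which had the lowest fold changes of the 47. Psma5, Psmb4, Psmd13 and Psmf1 were also higher in every STARKO1 library and are not shown. The choice was made with the values known. The sequences are the genes' own strand, 5′ to 3′, taken from the RefSeq windows of GRCm38.p6 and ended before both the RefSeq and the GENCODE start. Capitals mark matches, on either strand, to TGACNNNGC, the core of the antioxidant response element at which NRF1 is known to bind. They also mark CCGGAAG, found in sites of the ETS factor family, the CCAAT box and the box of Sp1-like factors, GGGCGG, none of which overlapped another in these stretches. In order, they lie at chr2:180171338-180171484, chr11:70525107-70525356, chr16:20651402-20651651, chr12:100109952-100110153 and chr13:34162714-34162963, all on the plus strand.
Adrm1: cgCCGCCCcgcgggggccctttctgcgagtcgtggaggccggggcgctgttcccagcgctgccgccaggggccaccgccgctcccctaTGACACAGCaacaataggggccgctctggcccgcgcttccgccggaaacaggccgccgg
Psmb6: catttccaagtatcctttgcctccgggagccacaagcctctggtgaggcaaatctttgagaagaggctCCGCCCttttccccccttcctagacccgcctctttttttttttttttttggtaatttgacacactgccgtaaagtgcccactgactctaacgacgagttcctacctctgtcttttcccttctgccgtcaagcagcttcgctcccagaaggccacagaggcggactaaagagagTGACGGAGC
Psmd2: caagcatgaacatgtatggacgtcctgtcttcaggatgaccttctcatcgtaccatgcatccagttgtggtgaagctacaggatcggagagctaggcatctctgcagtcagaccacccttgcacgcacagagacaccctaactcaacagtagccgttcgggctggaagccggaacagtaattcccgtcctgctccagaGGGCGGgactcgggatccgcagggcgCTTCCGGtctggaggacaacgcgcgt
Psmc1: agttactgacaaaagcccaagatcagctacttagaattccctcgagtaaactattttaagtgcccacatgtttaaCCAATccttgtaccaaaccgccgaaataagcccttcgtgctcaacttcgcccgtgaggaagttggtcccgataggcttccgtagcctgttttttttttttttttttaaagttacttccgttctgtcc
Psmg4: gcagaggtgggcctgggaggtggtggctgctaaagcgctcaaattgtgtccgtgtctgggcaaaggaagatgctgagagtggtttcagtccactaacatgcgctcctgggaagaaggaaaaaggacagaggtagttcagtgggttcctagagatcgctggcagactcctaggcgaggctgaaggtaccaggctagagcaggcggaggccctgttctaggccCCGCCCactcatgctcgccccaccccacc
The printed stretches of Adrm1 and Psmb6 held TGACNNNGC and those of Psmd2, Psmc1 and Psmg4 did not. A match is a description of the letters and not a measured site.

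Over whole windows of 300 bases, 43 windows were found for 40 of the 47 genes. TGACNNNGC was in 7 of them (16.3%), those of Adrm1, Psmb5, Psmb6, Psmc6, Psmd12, Psmd9 and Psme4. It was in 12.4% of all 32851 windows and 14.4% of the 11165 windows of tested genes. Of those 7 genes, Adrm1 and Psmb6 were above 0.5 in log2 fold change and Psmb5 and Psmd9 were below −0.7, so that the motif was found on both sides. CCGGAAG was in 18 windows (41.9%), against 8.86% of all windows and 19.2% of those of tested genes. GGGCGG was in 58.1% of the proteasome windows and 64% of those of tested genes, and CCAAT in 32.6% and 38.7%. These shares were not tested.

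The 8 lid genes encode the part of the cap that cleaves ubiquitin off the substrate. Psmd7, the partner of the deubiquitinating subunit Psmd14, had 238, 800 and 1014 CPM in MA-10 and 342, 349 and 364 CPM in STARKO1. MA-10 replicate 1 was the lowest library and MA-10 replicates 2 and 3 the highest (log2 fold change −0.96, SE 0.488, adjusted p = 0.189, and without MA-10 replicate 1 −1.28, adjusted p = 0.000125). Psmd14 itself had a log2 fold change of −0.52 (SE 0.310, and without MA-10 replicate 1 −0.70, adjusted p = 0.00140). Psmd8 had 85.8, 137 and 148 CPM in MA-10 and 77.9, 74.4 and 69.1 CPM in STARKO1, so that even MA-10 replicate 1 was above every STARKO1 library (log2 fold change −0.74, SE 0.232, adjusted p = 0.0767, and without MA-10 replicate 1 −0.86, adjusted p = 0.000324). Psmd13 had 76.9, 47.1 and 51.3 CPM in MA-10 and 80.9, 79.4 and 81.2 CPM in STARKO1. There MA-10 replicate 1 came close to the STARKO1 libraries, which were all above it (log2 fold change 0.46, SE 0.216, adjusted p = 0.163, and without MA-10 replicate 1 0.80, adjusted p = 0.000447). Psmd13 overlaps Sirt3 on the opposite strand and Gm15542 on its own. Psmd11 had a log2 fold change of 0.07 (SE 0.152, and without MA-10 replicate 1 0.11, adjusted p = 0.414) and Psmd6 had 0.24 (SE 0.335, and without MA-10 replicate 1 0.03, adjusted p = 0.862). Of the 8 lid genes, 5 were called without MA-10 replicate 1, Psmd13 higher and Psmd7, Psmd8, Psmd12 and Psmd14 lower, against 65.5% of all tested genes.

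The log2 fold change of the assembly chaperones was below 0 in 7 of 8 genes with TMM scaling and in 4 of 8 with scaling by library size alone, those being Psmd5, Psmd9, Psmg4 and Pomp. For the base, Psmd5 had 187, 548 and 465 CPM in MA-10 and 217, 218 and 228 CPM in STARKO1, with MA-10 replicate 1 the lowest of all (log2 fold change −0.86, SE 0.383, adjusted p = 0.150, and without MA-10 replicate 1 −1.11, adjusted p = 8.86e-05). Psmd9 and Psmd10, the other base chaperones, had −0.74 (SE 0.339) and −0.32 (SE 0.179), and without MA-10 replicate 1, at −0.97 (adjusted p = 0.000142) and −0.37 (adjusted p = 0.0186), all 3 were called lower. For the core, Psmg4 (chr13:34162964-34178173, plus strand), which acts with Psmg3 on the alpha ring, had the lowest fold change of the 47. It had 21.4, 112 and 80.8 CPM in MA-10 and 20.6, 21.8 and 19.9 CPM in STARKO1. MA-10 replicate 1 lay among the STARKO1 libraries, and the other MA-10 libraries were well above them (log2 fold change −1.78, SE 0.539, adjusted p = 0.0732, and without MA-10 replicate 1 −2.13, adjusted p = 1.76e-05). Its partner Psmg3 had 21.5, 40.6 and 29.2 CPM in MA-10 and 20.8, 25.2 and 25.2 CPM in STARKO1, with a log2 fold change of −0.36 (SE 0.252, and without MA-10 replicate 1 −0.47, adjusted p = 0.0303). Psmg1 had 0.18 (SE 0.269, and without MA-10 replicate 1 0.11, adjusted p = 0.663), and Pomp, which is consumed as the core matures, had −0.60 (SE 0.331, and without MA-10 replicate 1 −0.79, adjusted p = 0.00222). Of the 5 core chaperones, 4 were called lower without MA-10 replicate 1 and Psmg1 was not. Beside the counts of base and core chaperones, 31.6% of all tested genes were called lower in that comparison.

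Psme1 and Psme2 encode the alpha and beta subunits of the activator PA28, which interferon induces and which serves antigen processing. Psme1 (chr14:55578123-55581529, plus strand) had 237, 1024 and 719 CPM in MA-10 and 226, 250 and 241 CPM in STARKO1, and Psme2 (chr14:55587441-55591113, minus strand) had 96.3, 332 and 256 CPM in MA-10 and 95.1, 99.2 and 98.6 CPM in STARKO1. In both, MA-10 replicate 1 lay within the STARKO1 range and the other MA-10 libraries were on average 3.68 times (Psme1) and 3.06 times (Psme2) as high as it. The log2 fold change was −1.47 for Psme1 (SE 0.491, adjusted p = 0.0859) and −1.23 for Psme2 (SE 0.420, adjusted p = 0.0897). Without MA-10 replicate 1 they were −1.78 (adjusted p = 4.03e-05) and −1.5 (adjusted p = 3.65e-05). Psme3, which forms the nuclear activator, had −0.31 (SE 0.222, and without MA-10 replicate 1 −0.39, adjusted p = 0.0240), and Psme4, a large activator known for its role in spermatogenesis, had 231, 171 and 244 CPM in MA-10 and 227, 217 and 225 CPM in STARKO1, which overlapped (log2 fold change 0.05, SE 0.194, adjusted p = 0.856, and without MA-10 replicate 1 0.19, adjusted p = 0.345).

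Psme2b, on chromosome 11, had 4.75, 23.1 and 18.8 CPM in MA-10 and 5.81, 5.66 and 5.17 CPM in STARKO1 (log2 fold change −1.48, SE 0.528, adjusted p = 0.0962, and without MA-10 replicate 1 −1.82, adjusted p = 2.71e-05). It was high in the same libraries as Psme2. The genes share most of their sequence, and 715 of 720 coding bases were identical (99.3%), with 11 exons in Psme2 and 1 in Psme2b. Counts of both genes were not whole in 5 libraries. The Psme2 and Psme2b levels are therefore uncertain as to which gene the reads came from.

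Psmf1, whose protein PI31 binds and can inhibit the core, was the steadiest member in MA-10, with 16.7, 17.0 and 15.8 CPM, and had 20.2, 20.04 and 22.3 CPM in STARKO1. The cell lines did not overlap, MA-10 replicate 1 included (log2 fold change 0.34, SE 0.145, adjusted p = 0.140, and without MA-10 replicate 1 0.44, adjusted p = 0.0133). Psmc3ip, which is not one of the ATPases, had 25.03, 137 and 79.4 CPM in MA-10 and 31.0, 32.1 and 31.5 CPM in STARKO1 (log2 fold change −1.35, SE 0.538, adjusted p = 0.120, and without MA-10 replicate 1 −1.68, adjusted p = 0.000157), the course seen in Psmc1 and Psme1.

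The differences between MA-10 libraries were next set beside those between cell lines, as a description with no test, since both use MA-10 replicate 1. MA-10 replicates 2 and 3 were above replicate 1 by a median of 0.82 in log2(CPM + 0.5) over the 47 genes, against −0.04 over all tested genes. STARKO1 was above MA-10 replicate 1 by a median of 0.24, against 0.00 over all tested genes, and was the higher in 41 of the 47 genes and in 50% of all tested genes. In 40 of the 47, MA-10 replicate 1 was nearer to the STARKO1 mean than to the mean of its own 2 other libraries, as it was in 69.7% of all tested genes. The sign of the comparison thus differed with the MA-10 library used: in 31 of the 47 genes, and in 19.8% of all tested genes, STARKO1 was above MA-10 replicate 1 and below the mean of MA-10 replicates 2 and 3. In Adrm1, STARKO1 was above replicate 1 by 0.75, and replicates 2 and 3 were below it by 0.20. In Psmb5 and Psmd8, STARKO1 was below replicate 1 as well, by 0.27 and 0.22.

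**Figure D4:**
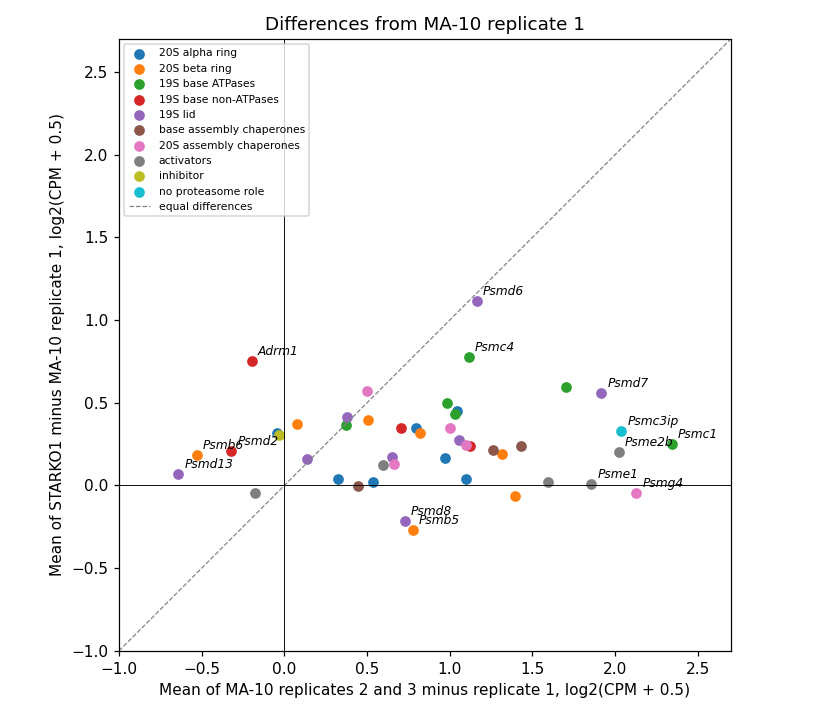
Difference of each gene from MA-10 replicate 1 in log2(CPM + 0.5), for the mean of MA-10 replicates 2 and 3 (horizontal axis) and the mean of the 3 STARKO1 libraries (vertical axis), colored by role. Most points lie to the right of 0 and well below the dashed line of equal differences. Psmc1 is the farthest to the right at 2.34, Psmd6 lies near the line at 1.16 and 1.12, and Adrm1 lies to the left at −0.20 and up at 0.75.

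Summed over the 47 genes, the level was 5907, 12672 and 10774 CPM in MA-10 and 7150, 6991 and 7466 CPM in STARKO1. As a percent of the deposited counts, before TMM scaling, it was 0.682, 0.828 and 0.867 in MA-10 and 0.851, 0.821 and 0.875 in STARKO1. MA-10 replicates 2 and 3 were thus well above STARKO1 on the first scale and within its range on the second, while MA-10 replicate 1 was the lowest on both. Ribosomal protein genes made up 8.62% and 7.78% of MA-10 libraries 2 and 3 and 4.23% to 4.61% of the other 4, and their part in the results was not tested.

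Relative to the summed level, members kept distinct shares. Psmc1 was 2.47%, 7.22% and 5.57% of the sum in MA-10 and 2.39% to 2.44% in STARKO1, with MA-10 replicate 1 next to STARKO1. Adrm1 was 0.968%, 0.428% and 0.424% in MA-10 and 1.27%, 1.22% and 1.57% in STARKO1, again without overlap. Psmd2 was 6.80%, 2.63% and 2.88% in MA-10 and 6.39% to 6.52% in STARKO1, and on this scale MA-10 replicate 1 was above STARKO1. Psmb5 was 1.94%, 1.73% and 1.64% in MA-10 and 1.27% to 1.38% in STARKO1, with no overlap. The ATPases together made up 12.8%, 20.1% and 16.4% of the sum in MA-10 and 14.54% to 14.97% in STARKO1, and the beta ring 20.8%, 18.1% and 16.3% in MA-10 and 20.2% to 21.0% in STARKO1.

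Levels per kilobase of the principal transcript placed the core genes in order. The annotated length was used, and the transcript ends present in these cells were not measured. Before division by length, Psma2 (2911 bases) had a mean of 133 CPM in STARKO1 and Psmb6 (798 bases) 124 CPM. Psmb7 was the highest in both cell lines, at 625 ± 137 CPM per kb in MA-10 and 643 ± 34.6 in STARKO1 (SD, n = 3 each). Psma7 came next at 276 ± 114 and 218 ± 12.3 CPM per kb, and its libraries did not overlap those of Psmb7 in either cell line. Psma2 was the lowest, at 52.1 ± 8.46 in MA-10 and 45.7 ± 0.757 in STARKO1, and did not overlap the gene above it, Psma5 in MA-10 and Psma3 in STARKO1. Between Psma7 and Psma5 in MA-10, all neighbours in the order overlapped. In STARKO1, where the spread was smaller, Psma7, Psma4 and Psmb6 followed each other without overlap, and Psmb6 and Psmb1 overlapped. The highest of these RNA levels was 12 times the lowest in MA-10 and 14.1 times the lowest in STARKO1. The core holds equal numbers of its subunits as protein, which was not measured here. The Psmb7 counts were not whole in 4 libraries, and the gene overlaps Nek6 on the other strand.

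**Figure D5:**
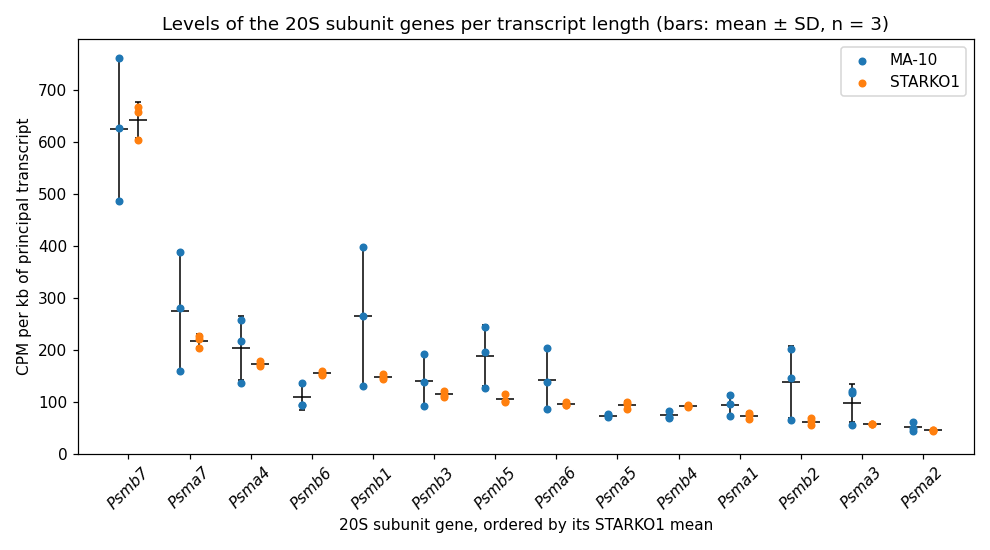
Level of the 14 core genes in CPM per kb of principal transcript, for each library (points) and as mean ± SD of the 3 libraries of MA-10 and STARKO1, ordered by the STARKO1 mean. Psmb7 stands above all others at 625 and 643 CPM per kb, and Psma2 is the lowest at 52.1 and 45.7.

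Outside the 47 genes, 29 genes of the same pathway were listed, of which 28 were tested. By edgeR's quasi-likelihood test, 2 were called, both higher in STARKO1, against 9.04% of all tested genes. Uba1, the main ubiquitin-activating enzyme, had 233, 124 and 138 CPM in MA-10 and 399, 386 and 411 CPM in STARKO1. Every STARKO1 library was above every MA-10 library (log2 fold change 1.28, SE 0.275, adjusted p = 0.0397, and without MA-10 replicate 1 1.69, adjusted p = 2.39e-05). Usp14, a deubiquitinase that binds the base scaffold Psmd2, had 50.7, 46.1 and 48.8 CPM in MA-10 and 72.3, 71.6 and 78.4 CPM in STARKO1, without overlap (log2 fold change 0.61, SE 0.140, adjusted p = 0.0452, and without MA-10 replicate 1 0.73, adjusted p = 0.000771). Leaving out any library other than MA-10 replicate 1 ended both calls. So did library size scaling and the replicate block (adjusted p = 0.0818 for Uba1 and 0.126 for Usp14 with the block, edgeR). When MA-10 replicate 1 was left out, 21 of the 28 were called, 12 higher and 9 lower, against 65.5% of all tested genes, 33.9% higher and 31.6% lower.

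Nfe2l1, which encodes NRF1, had 368, 332 and 304 CPM in MA-10 and 243, 241 and 252 CPM in STARKO1, all below MA-10 (log2 fold change −0.45, SE 0.171, adjusted p = 0.111). It was called lower, at a smaller size, without MA-10 replicate 1 (−0.28, adjusted p = 0.0441), and by DESeq2 with all libraries (−0.43, adjusted p = 0.0273). Its relative Nfe2l2 had 181, 575 and 399 CPM in MA-10 and 202, 215 and 201 CPM in STARKO1, with MA-10 replicate 1 the lowest (log2 fold change −0.90, SE 0.396, adjusted p = 0.145, and without MA-10 replicate 1 −1.15, adjusted p = 0.000301). Vcp, the segregase that extracts substrates and NRF1 from membranes, had a log2 fold change of 0.79 (SE 0.266, adjusted p = 0.0875, and without MA-10 replicate 1 1.17, adjusted p = 0.000144). Sem1, the smallest subunit of the cap, had 68.1, 298 and 259 CPM in MA-10 and 70.2, 72.7 and 70.2 CPM in STARKO1 (log2 fold change −1.55, SE 0.5, adjusted p = 0.0806, and without MA-10 replicate 1 −1.88, adjusted p = 1.2e-05). The immunoproteasome subunits, which replace the catalytic ones after interferon, had log2 fold changes of 0.35 for Psmb8, 0.33 for Psmb9 and 0.44 for Psmb10, none called by edgeR with all 6 libraries. Psmb8 (0.38, adjusted p = 0.0144) and Psmb9 (0.49, adjusted p = 0.0402) were called higher without MA-10 replicate 1 and Psmb10 was not (0.21, adjusted p = 0.275), and Psmb8 was also called with gene length offsets (0.58, adjusted p = 0.0394). The ubiquitin genes Ubb and Rps27a had −0.93 (SE 0.459, and without MA-10 replicate 1 −1.20, adjusted p = 0.000981) and −1.47 (SE 0.501, and without MA-10 replicate 1 −1.78, adjusted p = 7.18e-05). Vcp, Sem1, the immunoproteasome subunits and the ubiquitin genes were named after their values were seen.

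Length and GC content were not used by the rule. The median exonic length of the proteasome genes was 1535 bases, against 3085 over all tested genes, with 6 of the 47 above the latter, up to 6491 bases in Psme4, and their median GC content was 49.7%, against 49.6%. Across the 47 genes, Spearman's rho between length and log2 fold change was 0.17, and across all tested genes it was 0.19. With GC content it was −0.10 over the 47 genes and 0.20 over all tested genes. For the difference of MA-10 replicates 2 and 3 from replicate 1, rho with length was −0.17 over the 47 genes and −0.28 over all tested genes, and rho with GC content was 0.11 and −0.31. These correlations are across genes that share the same 6 libraries, and are given as a description only.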

How the data were processed

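RNA of 3 libraries of MA-10 cells and 3 of STARKO1 cells, made with a kit that marks strand, was sequenced. The authors deposited 1 table of estimated counts per gene, not normalized, with replicates kept apart. The submitters' processing notes name the aligner STAR 2.6.1d, Partek and build mm10. The counting program, its annotation and its use of strand are not given in the sources used here, so reads of genes that overlap on opposite strands may not be separable. Every count column was assigned to a library by its name, and a value further than 0.1 from a whole number was taken as not whole.

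The estimated counts were rounded, filtered with filterByExpr, scaled by TMM and compared with the quasi-likelihood test of edgeR 4.0.16 in R 4.3.3, without a replicate block, and genes with a Benjamini-Hochberg adjusted p under 0.05 over all tested genes were called. edgeR estimated a common biological coefficient of variation of 0.291, and the totals of 14114351 to 19530062 counts left little counting error for genes at these levels, and 3 libraries per cell line limit the precision. CPM use the TMM-scaled library size, and log2 levels have 0.5 CPM added. The SE given is the absolute log2 fold change divided by the square root of the quasi-likelihood F statistic. The starts of all 47 genes matched GENCODE annotation of GRCm38, from which lengths and GC content were taken. Python 3.11.15 with numpy 2.4.6, pandas 2.3.3 and matplotlib 3.10.9 served for tables and plots. The fits were tested on simulated data.

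The genes, lists and alternatives were chosen with earlier results of these data known. Named are the called genes, those with the highest and the lowest fold change of each role, the catalytic subunits, genes with values that were not whole, called genes of the linked list, Nfe2l1, Nfe2l2 and Star, and any other name was chosen after its values were seen. The alternatives were DESeq2 1.42.0, upper quartile and library size scaling, a replicate block, no filter, a minimum of 10 counts in each library, offsets for gene length or GC content with and without the block, counts thinned to the smallest library, and leaving out each library in turn. MA-10 replicate 1 alone, the list without Psmc3ip and Psme2b, and shares of the summed level were added after the data were seen.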

Additional observations from a re-analysis of the deposited data

How the results depend on the processing

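The 29 proteasome genes named by the rule above, without those picked on sight of their values, were followed through all alternatives with a test. Of their values, 442 of 493 kept their direction and their side of the threshold. Of the named proteasome genes, only Adrm1 was called with all 6 libraries, so for the others keeping their side meant staying uncalled. Adrm1 kept its call in 1 of 6 fits that left out a library and in 7 of the 11 other alternatives. Star kept both in every alternative. With DESeq2, 9 proteasome genes, 7 linked genes and 3395 genes in all were called; with library size scaling 0, 0 and 330; and 692 genes in all with at least 10 counts in every library. Leaving out 1 library gave 0 to 37 proteasome genes, 0 to 21 linked genes and 89 to 7995 genes in all, and a median of the proteasome genes of −0.43 to −0.10. The highest counts were those without MA-10 replicate 1. That median was 0.20 with library size scaling, 0.24 for MA-10 replicate 1 alone against STARKO1 and 0.10 for shares of the summed level. Among the 29 genes, the direction turned with library size scaling in Psma4 (0.30), Psmb3 (0.24), Psmd1 (0.32) and Psmd10 (0.17). With gene length offsets it turned in Psma4 (0.22), Psmb3 (0.18) and Psme4 (−0.0561). Over all 47 genes, the number below 0 went from 33 with TMM scaling to 18 with library size scaling, so genes outside the 29 turned as well. Among the 29, leaving out 1 library also turned the direction in Psmb7 (−0.0206 to 0.20, below 0 without MA-10 replicate 1), Psme4 (−0.0911 to 0.19, below 0 without MA-10 replicate 2) and Psmd1 (−0.29 to 0.0772, above 0 without MA-10 replicate 3). Outside the 29, it turned in Psmc4, at −0.07 with all 6 libraries and −0.27 to 0.29 with 1 left out. None of these values was called in all 6 libraries, and the cause was not tested.

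Libraries of both cell lines carry the numbers 1 to 3. Deviations of same-numbered libraries from their group means correlated at −0.03, 0.09 and −0.02 over 8538 genes. The labels do not say whether a shared number stands for a pairing. The spread within MA-10 was several times that within STARKO1, so these correlations cannot decide it. With the replicate block, 0 proteasome genes, 0 linked genes and 234 genes in all (1.96%) were called, and Adrm1 had a log2 fold change of 0.89 (adjusted p = 0.105, edgeR). With the block and gene length offsets these counts were 0, 0 and 298. Among the 29 genes, the direction then turned in Psma4 (0.22), Psmb3 (0.18) and Psme4 (−0.0496). With the block and GC content offsets they were 0, 0 and 460.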
